A study of Mus musculus with 16 samples.

Results

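The arrays described here compare the palate of mouse embryos that lost Erk2 in neural crest cells with that of their controls at E14.5 (embryonic day). They are 10 of the 16 arrays of the series, chosen by the stage and genotype in their labels: 5 mutants and 5 controls. Both groups carried floxed Erk2 alleles (Erk2 fl/fl) and are labelled as C57BL/6J mice. The mutants also carried Wnt1-Cre, a transgene whose recombinase is active in the neural crest lineage, and the controls carried no Cre, although their titles call them wild-type. By the titles, batch 1 held the first 2 arrays of each genotype (replicates 1 and 2) and batch 2 the other 3 (replicates 3, 4 and 5). RNA was described as coming from palate mesenchyme tissue in the extraction protocol and from primary palatal mesenchymal cells in the design text. How many embryos an array pools is not stated, so p-values measure the spread between these arrays, which may be partly technical. One-colour Affymetrix arrays gave log2 expression values, and the level of the targeted gene was not analysed here.

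ERK2 is a kinase at the end of the RAS, RAF and MEK cascade. Growth factors such as FGF and EGF activate it, and it then switches on a short list of target genes, many of which encode inhibitors of the same cascade. The mesenchyme of the palatal shelves comes from the neural crest, whereas the oral epithelium covering it, the muscle cells, the endothelium of the blood vessels and the macrophages have other origins. At this stage the shelves rise above the tongue, meet and fuse in the midline, and bone begins to form inside them from condensing mesenchyme.

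Arrays of one genotype correlated at 0.989 to 0.996 over 8703 genes, and no 2 arrays held identical values. All 7 markers of palatal mesenchyme were measured, including Prrx1, Twist1 and Osr2. Markers of other tissues were measured too: 6 of 6 of oral epithelium, 3 of 5 of skeletal muscle, 3 of 3 of bone, 3 of 3 of macrophages, 2 of 3 of endothelium, 2 of 3 of red blood cells, 1 of 3 of cartilage and 1 of 3 of neurons. A gene counted as measured when it passed the filter on low values, which asked for at least 5 arrays at a log2 value of 4. Xist and Y-linked probe sets read 3 mutants (1, 2 and 3) and 1 control (4) as female. In batch 1 both mutants were female and both controls male, so sex and genotype cannot be told apart within that batch. The beta-actin signal at the 5′ end minus that at the 3′ end, a sign of RNA quality, averaged −1.24 ± 0.09 for the mutant arrays and −1.27 ± 0.21 for the control arrays (± SD, n = 5 each). A two-sided exact permutation test gave p = 0.794.

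The differences between genotypes were few and mostly small. Of 8703 genes tested, 87 were called (1.00%), meaning that limma gave a Benjamini-Hochberg adjusted p under 0.05 with batch as a term. Of these, 48 rose in mutants (0.552% of all genes) and 39 fell (0.448%), and 28 changed at least 1.5-fold, 17 of them upward. The largest rises were those of Ly6d, a surface protein of stratified epithelia, and Bnc1 (basonuclin), a keratinocyte zinc finger protein. The largest falls were those of Phex, an endopeptidase of bone cells, Kazald1, a secreted protein, and Lyve1, a hyaluronan receptor of lymphatic vessels and of some macrophages. The median over all genes was 0.01 on the log2 scale and 56.1% of genes lay above 0 and 43.9% below. An unadjusted p under 0.05 was reached by 1291 genes (14.8%), where 435 would reach it by chance. After a further quantile normalization 104 genes were called, 46 higher and 58 lower.

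**Figure D1:**
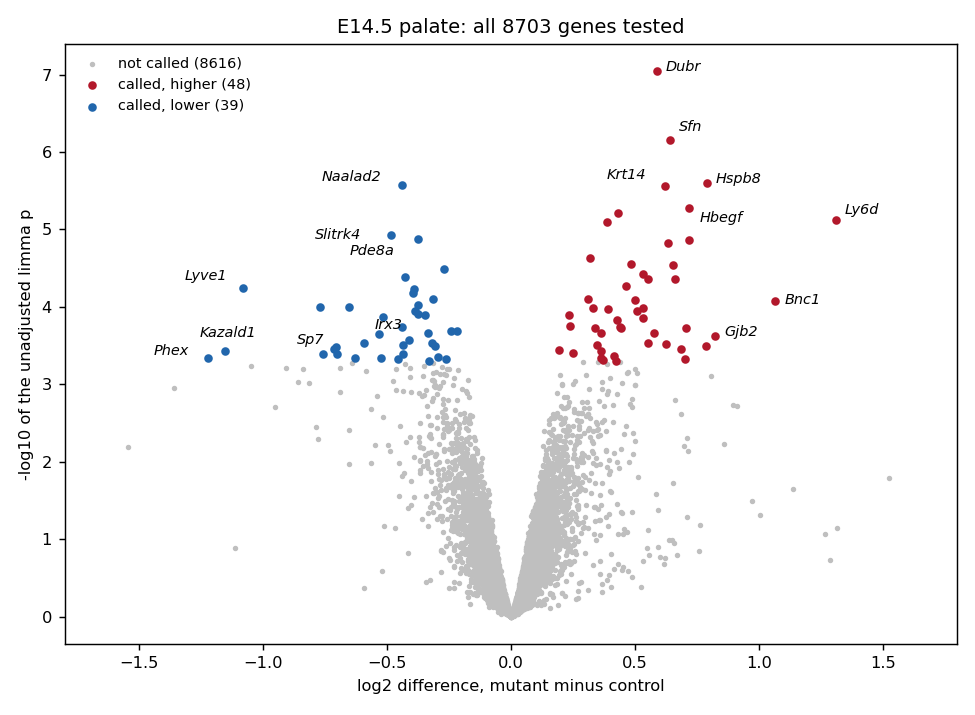
Each point is 1 of the 8703 genes tested, with the log2 difference (mutant minus control) on the x axis and −log10 of the unadjusted limma p on the y axis. The 48 genes called higher are red, the 39 called lower are blue, and most of them lie within 1.5-fold of the controls.

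The count of calls changed with the array left out. It ranged from 15 without mutant 5 to 134 without mutant 2. It was 16 without mutant 1, 17 without control 3, 20 without mutant 3 and 20 without control 2. It was 32 without mutant 4, 34 without control 5 and 52 without control 4. Without control 1 the count was 88, and 62 of those were among the 87. In a fit of all 16 arrays of the series, which estimates the spread over both stages, 254 genes were called, 83 of them among the 87. With sex as a term 19 were called, 18 of them among the 87, and the log2 differences of the 87 were a median 1.02 times as large. No called gene changed sign under any of the 25 alternative settings in which it was tested, which its selection on the same arrays favours. In 83 of the 87, every mutant array lay on the same side of every control array of its own batch in both batches. That held for 283 of all genes tested in the higher direction (3.25%) and for 244 in the lower direction (2.80%).

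Of the called genes, 13 were called whichever array was left out, and all 13 also with sex as a term. Those that rose were Dubr, Sfn, Hspb8, Krt14, Hbegf, Ctnnd2, Ly6d, Tmem132c, Krt6a and Tnfrsf12a, and those that fell were Naalad2, Slitrk4 and Pde8a. Dubr, a long noncoding RNA gene, had the smallest p of all genes. Its log2 values were 5.80, 5.92, 5.80, 5.91 and 5.81 in mutants 1 to 5 and 5.35, 5.29, 5.20, 5.21 and 5.26 in controls 1 to 5. The rise was 0.59 ± 0.044 (1.502-fold, adjusted p = 0.000788; ± gives limma's moderated standard error here and below, n = 5 and 5). Naalad2, a glutamate carboxypeptidase, had the smallest p among the falls. It stood at 5.42, 5.30, 5.35, 5.33 and 5.22 in mutants 1 to 5 and 5.75, 5.84, 5.78, 5.67 and 5.79 in controls 1 to 5, a fall of 0.44 ± 0.048 (adjusted p = 0.00475). For both genes the 2 sets of arrays were far apart with no overlap. Dubr, Naalad2, Ctnnd2, Tmem132c and Pde8a are named after their values were seen. Ctnnd2, which encodes the junction protein delta-catenin, rose by 0.43 ± 0.051, Tmem132c by 0.39 ± 0.047, and the cyclic nucleotide phosphodiesterase gene Pde8a fell by 0.38 ± 0.048. Tnfrsf12a, the receptor of the cytokine TWEAK, rose by 0.63 ± 0.083, and Slitrk4, a neuronal transmembrane protein, fell by 0.48 ± 0.062.

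**Figure D2:**
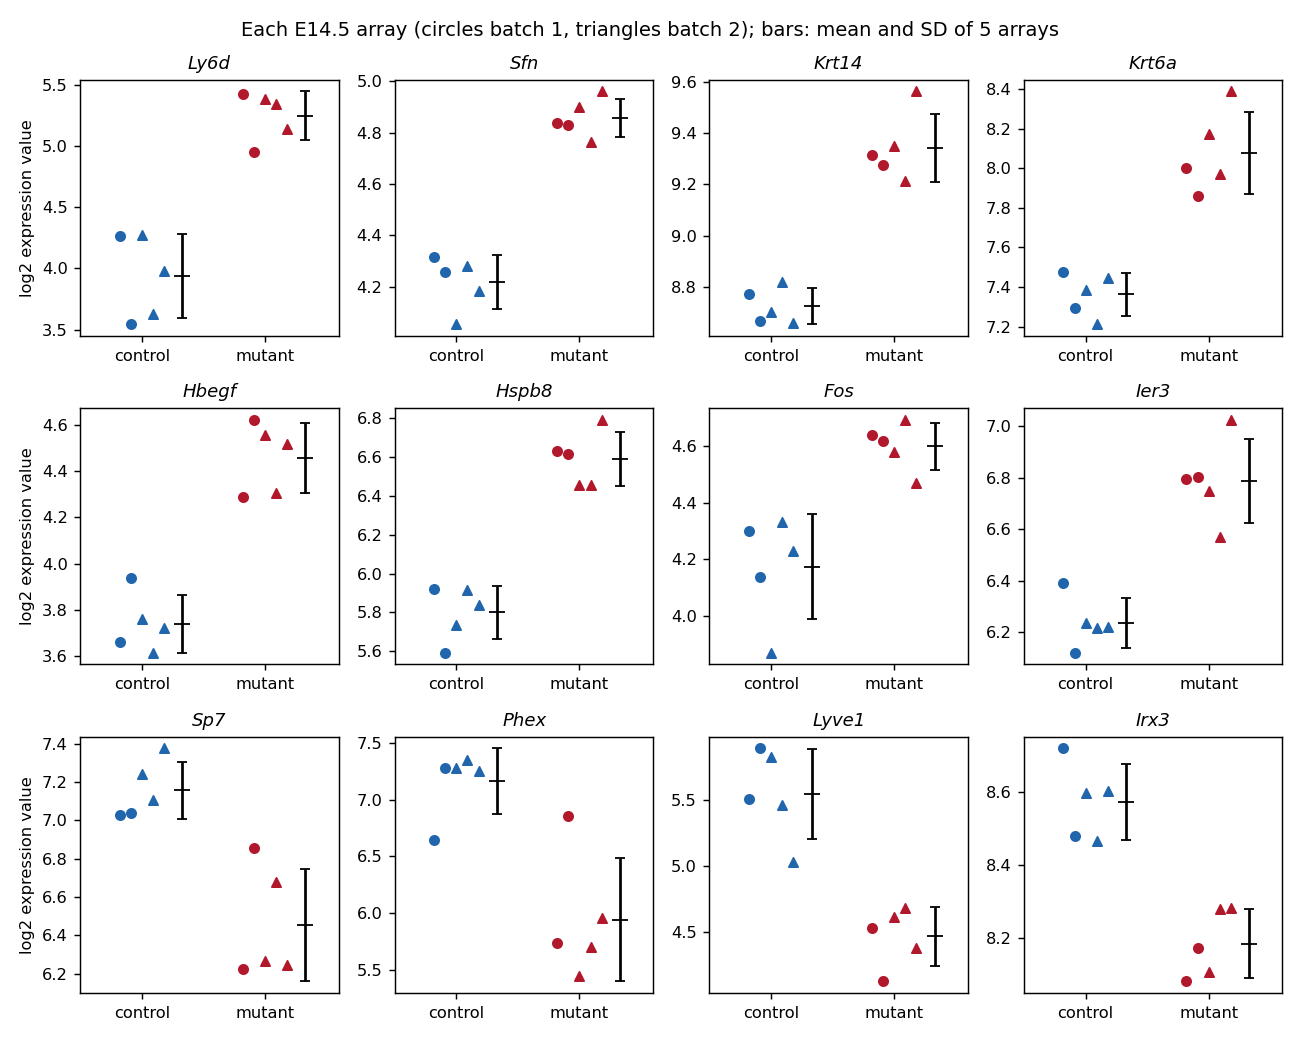
Each panel gives the log2 expression value of 1 gene on the 10 arrays, controls in blue and mutants in red, with circles for batch 1 and triangles for batch 2. Bars are the mean and SD of 5 arrays, and the mutant and control points overlap in only 1 of the 12 panels, that of Phex, where mutant 2 at 6.86 lies above control 1 at 6.65. All 12 genes were called on these same arrays, which favours a lack of overlap. For 3.25% of all genes tested, every mutant array lay above every control array of its own batch, and for 2.80% below. Hbegf and Ly6d passed the filter on low values only with their mutant arrays, which favours their lack of overlap further.

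Genes of the oral epithelium were higher in mutants, and they held the largest rises of all. All 39 members tested lay above controls, with a median log2 difference of 0.39, and 10 rose, against 0.552% of all genes. Another 23 had an unadjusted p under 0.05 without being called, which makes 33 of 39 against 8.20% of all genes. The mean over the list was 7.11 to 7.43 on the mutant arrays and 6.75 to 6.85 on the control arrays, with no overlap. The median was 0.43 in batch 1 and 0.42 in batch 2. It was 0.42 with sex as a term, 0.35 without controls 1 and 3, and 0.35 to 0.47 over the fits that left out 1 array. With sex as a term 5 of its genes were called, and over the fits without 1 array 4 (without mutant 5) to 12 (without mutant 2). In bulk RNA, more cells of a type and more RNA per cell cannot be told apart.

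The structural keratins came first. Krt14, the keratin of basal keratinocytes, was at 9.31, 9.28, 9.35, 9.21 and 9.56 in mutants 1 to 5 and 8.77, 8.66, 8.70, 8.82 and 8.66 in controls 1 to 5. It rose by 0.62 ± 0.067 (1.54-fold, adjusted p = 0.00475), and even the lowest mutant lay above the highest control. Krt6a, a keratin of activated and oral epithelium, was at 8.002, 7.86, 8.17, 7.97 and 8.39 in mutants 1 to 5 and 7.47, 7.29, 7.39, 7.21 and 7.45 in controls 1 to 5. It rose by 0.72 ± 0.093 (adjusted p = 0.00993), again without overlap. Krt18, a keratin of simple epithelia, rose by 0.49 ± 0.068, and Krt17 was at 0.81 ± 0.17 and not called (adjusted p = 0.0571). The other members, Krt5, Krt8, Krt15 and Krt19, lay at 0.26 to 0.45, so that all 8 keratins of the list were above controls. Krt7, a simple-epithelium keratin outside the list and named after its value was seen, rose by 0.50 ± 0.080.

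Among surface proteins and secreted or cytoplasmic products the differences were larger. Ly6d stood at 5.42, 4.95, 5.38, 5.34 and 5.14 in mutants 1 to 5 and 4.27, 3.54, 4.27, 3.63 and 3.98 in controls 1 to 5. Its rise of 1.31 ± 0.16 was 2.48-fold (adjusted p = 0.00777) and was 1.28 in batch 1 and 1.33 in batch 2. The lowest mutant lay well above the highest control. Controls 2, 4 and 5 lay under 4, so Ly6d passed the filter on low values only with its mutant arrays. The filter thus favours this separation. Sfn, the 14-3-3 sigma protein of keratinocytes, was at 4.84, 4.83, 4.90, 4.76 and 4.96 in mutants 1 to 5 and 4.32, 4.26, 4.05, 4.28 and 4.18 in controls 1 to 5. Its rise was 0.64 ± 0.060 (adjusted p = 0.00307). S100a14, a calcium-binding protein of epithelia, rose by 0.65 ± 0.092 and Spint1, an inhibitor of epithelial surface proteases, by 0.51 ± 0.084. Anxa8 was at 0.86 ± 0.25 and Lgals7 at 0.69 ± 0.17, neither of them called.

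Of the 16 junction and adhesion genes 2 rose (0.552% of all genes did), and all lay above controls (56.1% of all genes did). Gjb2, which encodes the gap junction protein connexin 26, was at 5.68, 5.66, 6.05, 5.64 and 6.04 in mutants 1 to 5 and 5.36, 4.79, 5.29, 4.70 and 4.82 in controls 1 to 5. The groups did not overlap, and it rose by 0.82 ± 0.15 (1.77-fold, adjusted p = 0.0372). Pkp3, a plaque protein of desmosomes, rose by 0.63 ± 0.12, but it passed the filter on low values only through the mutant arrays. The calls of Gjb2 and Pkp3 were lost with sex as a term, and each in 8 of the 10 fits without 1 array. The desmosomal genes Pkp1 and Dsc3 were at 0.66 ± 0.16 and 0.59 ± 0.25 and not called. Cdh1 and Epcam, general epithelial adhesion genes, were at 0.16 ± 0.067 and 0.25 ± 0.077. Cdh1 was at 9.20, 9.04, 9.34, 9.35 and 9.34 in mutants 1 to 5 and 9.20, 9.10, 9.04, 9.08 and 9.02 in controls 1 to 5, and the 2 groups overlapped in batch 1, where its difference was −0.04. The smallest difference among the 16 junction genes was that of Cldn1, at 0.13 ± 0.083.

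The transcription factors of the list spread widely, from 0.08 to 1.07. Bnc1 was at 4.83, 4.67, 5.08, 4.84 and 4.74 in mutants 1 to 5 and 4.25, 3.16, 3.98, 3.74 and 3.71 in controls 1 to 5. It rose by 1.07 ± 0.17 (2.09-fold, adjusted p = 0.0249), and the call was lost without mutant 1, 3, 4 or 5 or control 3, 4 or 5, at adjusted p = 0.0520 to 0.0756. Controls 2 to 5 lay under 4, so Bnc1 passed the filter on low values only with its mutant arrays. The filter thus favours its separation from the controls. The epithelial master regulator Trp63 was at 0.39 ± 0.13, Tfap2c at 0.39 ± 0.17, Esrp1 at 0.32 ± 0.081 and Grhl2 at 0.15 ± 0.094, and none was called. Pax9, which the palatal mesenchyme expresses as well, was at 0.08 ± 0.074. Other genes of epithelia that rose, named after their values were seen, were Trim29 (0.58 ± 0.10), the membrane traffic protein Mal (0.69 ± 0.13), the ceramide synthase Cers3 of the skin barrier (0.39 ± 0.064), the keratinocyte kinase Ripk4 (0.36 ± 0.072), the adhesion protein Mpzl2 (0.31 ± 0.049) and Cdcp1 (0.55 ± 0.10). Among these, only Cdcp1 was called with sex as a term. Their calls were lost in 7 (Cers3, Mpzl2 and Cdcp1) to 9 (Mal and Ripk4) of the 10 fits without 1 array.

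**Figure D3:**
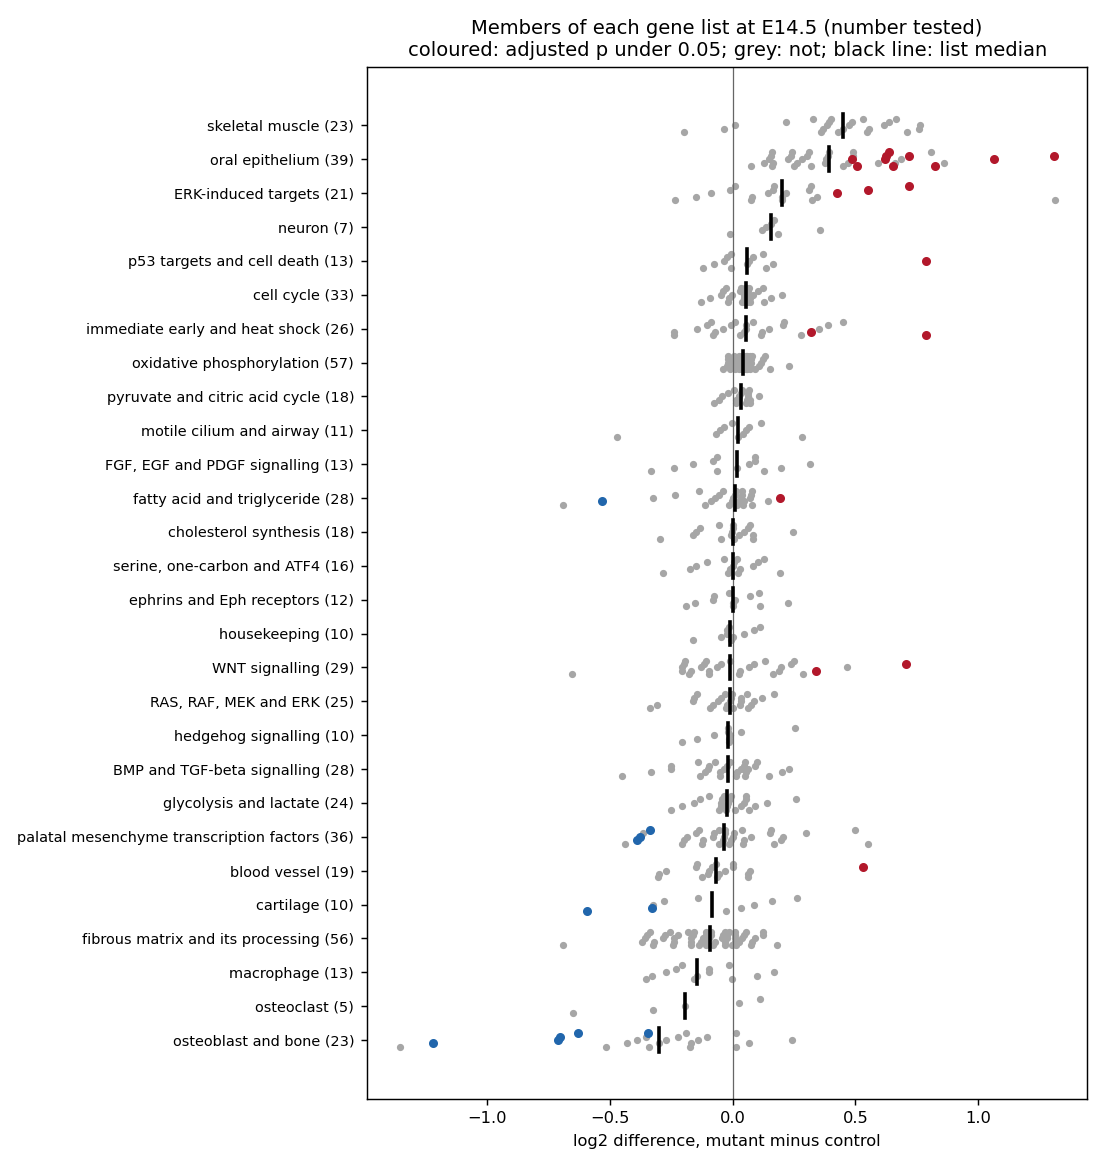
Each point is a tested gene of the list named on the y axis, with its log2 difference (mutant minus control) on the x axis, coloured if called and grey if not, and the black line is the list's median. Oral epithelium and skeletal muscle lie farthest to the right, at medians of 0.39 and 0.45, but no muscle gene is called, and osteoblast and bone lies farthest to the left at −0.30 among the lists drawn, which have at least 5 genes tested.

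Targets that ERK signalling induces were higher, not lower, in the mutants. Of 21 members tested, 17 lay above controls (56.1% of all genes did), with a median of 0.20, and 3 rose (0.552% of all genes did): Hbegf, Ier3 and Fos. The feedback inhibitors, which ERK induces and which then dampen the cascade, all lay above controls (9 of 9, at 0.01 to 0.32) but none was called. Dusp6, the cytoplasmic ERK phosphatase, was at 8.98, 8.998, 8.80, 9.21 and 9.02 in mutants 1 to 5 and 8.499, 8.85, 8.32, 8.87 and 8.89 in controls 1 to 5. Controls 1 and 3 lay below the other controls, the groups overlapped, and its difference was 0.32 ± 0.12 (adjusted p = 0.259). Spry1 was at 0.31 ± 0.083, Spry2 at 0.22 ± 0.059, Spry4 at 0.08 ± 0.18, Spred2 at 0.20 ± 0.048 and Etv5, a transcription factor that follows FGF signalling closely, at 0.33 ± 0.093.

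Hbegf, which encodes a ligand of the EGF receptor, was at 4.29, 4.62, 4.56, 4.31 and 4.52 in mutants 1 to 5 and 3.66, 3.94, 3.76, 3.62 and 3.72 in controls 1 to 5. It rose by 0.72 ± 0.083 (1.64-fold, adjusted p = 0.00756), 0.65 in batch 1 and 0.76 in batch 2, and all mutants lay above all controls. All controls lay under 4, so the gene passed the filter on low values only through the mutant arrays. The filter thus favours this lack of overlap. Ier3, an early response gene that limits cell death, was at 6.79, 6.80, 6.75, 6.57 and 7.03 in mutants 1 to 5 and 6.39, 6.12, 6.24, 6.22 and 6.22 in controls 1 to 5. Its rise was 0.55 ± 0.082 (adjusted p = 0.0182), and the call was lost without mutant 1 or 3 or control 2 or 3, at adjusted p = 0.0518 to 0.0650. Fos, the immediate early partner in AP-1, was at 4.64, 4.62, 4.58, 4.69 and 4.47 in mutants 1 to 5 and 4.30, 4.14, 3.87, 4.33 and 4.23 in controls 1 to 5. It rose by 0.42 ± 0.085 (adjusted p = 0.0499), and the groups did not overlap, though the call held in only 1 of 10 fits that left out an array. Egr1 was at 0.34 ± 0.090 and not called. Egr3 was at 1.31 ± 0.66, the largest difference of the list, with controls 1 and 3 at 3.92 and 2.81 and the other 8 arrays at 5.67 to 6.99, and was not called either. Klf4 went the other way, at −0.23 ± 0.052 (adjusted p = 0.0642), as did Myc, at −0.15 ± 0.071, and Ccnd1, at −0.09 ± 0.094.

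The mean of the ERK target list was 6.81 to 6.98 on the mutant arrays and 6.49 to 6.75 on the control arrays, with no overlap. The lowest controls were controls 1 and 3, at 6.56 and 6.49. Without them the median of the list was 0.14, and with sex as a term it was 0.18 with 1 gene called. Over the fits that left out 1 array it was 0.18 to 0.22 with 1 to 3 genes called. With all 16 arrays 7 genes were called. Several of these targets also answer to other signals and to handling of the tissue. Of 26 immediate early and heat shock genes, 17 lay above controls (65.4%, against 56.1% of all genes). Their median was 0.05, and 2 rose (7.69%, against 0.552% of all genes). Hspb8, a small heat shock protein, was at 6.63, 6.61, 6.46, 6.46 and 6.79 in mutants 1 to 5 and 5.92, 5.59, 5.74, 5.92 and 5.84 in controls 1 to 5. Its rise was 0.79 ± 0.085 (1.73-fold, adjusted p = 0.00475), without overlap. Socs3, an inhibitor of cytokine signalling, rose by 0.32 ± 0.044. Dusp1 was at 0.35 ± 0.071 (adjusted p = 0.0504) and Hspb1 at 0.39 ± 0.089, while Nr4a1 was at −0.09 ± 0.11 and Hsp90aa1 at −0.01 ± 0.047. How far handling takes part in the rise of the ERK targets was not tested.

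The cascade itself showed no called gene, but only 1.00% of all genes were called, so a list of 25 would often hold none. Of 25 members of the RAS, RAF, MEK and ERK list, 10 lay above and 15 below controls, with a median of −0.01. These are 40% and 60%, against 56.1% and 43.9% of all genes. Map2k1 (MEK1) was at 0.00 ± 0.049, Map2k2 (MEK2) at 0.03 ± 0.074, Braf at −0.15 ± 0.083 and Araf at −0.16 ± 0.14. The exchange factors Sos1 and Sos2 were at −0.01 ± 0.071 and −0.02 ± 0.053. The 2 members with an unadjusted p under 0.05 were Rasa3, a RAS GTPase activating protein, at −0.31 ± 0.095, and Gab2, an adaptor, at −0.16 ± 0.060. Both were lower, which makes 8% of the list against 6.63% of all genes. Upstream, 13 ligands and receptors of FGF, EGF and PDGF signalling had a median of 0.02 and no call, again in a list too short to expect one at 1.00%. Fgfr3 was at −0.33 ± 0.084, Erbb3 at 0.31 ± 0.077 and Pdgfra at −0.08 ± 0.062.

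**Figure D4:**
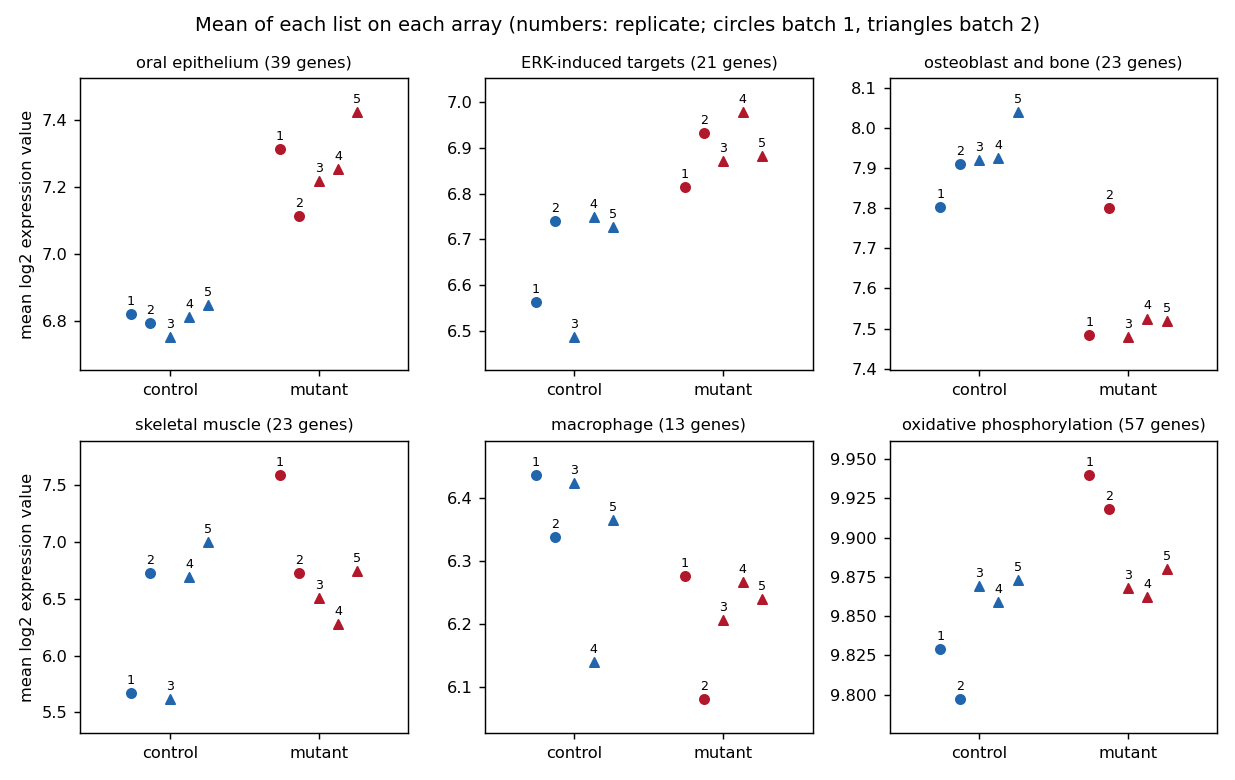
Each point is the mean log2 expression value over the genes of a list on 1 array, numbered by replicate, with controls in blue, mutants in red, circles for batch 1 and triangles for batch 2. Oral epithelium and ERK-induced targets show no overlap between genotypes, bone nearly meets at 7.80 in mutant 2 and control 1, and in skeletal muscle controls 1 and 3 stand at 5.67 and 5.62 while the other 8 arrays lie at 6.27 to 7.59.

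The promoters of the called genes were searched for 3 short motifs on both strands, because Fos was among the genes that rose. They were TGANTCA (a loose form of the AP-1 site, N being any base), the ETS site CCGGAAG and the RUNX site TGTGGT. RefSeq (GRCm38.p6) windows of 300 bases around a start site were at hand for 59 of the 87 genes. TGANTCA was in a window of 4 of 29 genes that rose (13.8%: Spint1, Macc1, Ifitm3 and Tmcc3), of 3 of 30 that fell (10%: Cybrd1, Sgms2 and Mef2c) and of 389 of 7114 genes tested (5.47%). CCGGAAG was in 3 of the 59 (5.08%) and in 21.6% of all genes tested. TGTGGT was in 6 of 30 genes that fell (20%), in 2 of 29 that rose (6.9%) and in 14% of all. A gene can have several windows, and no test was made of these shares. The match to TGANTCA read TGATTCA in Ifitm3, TGAATCA in Mef2c, and TGACTCA or TGAGTCA in the others. A match is a match of letters, not a bound site. The windows of Spint1 (chr2:119237110-119237409, + strand) and Macc1 (chr12:119443160-119443459, + strand), 2 genes that rose, and of Cybrd1 (chr2:71117804-71118103, + strand), an iron reductase gene that fell, are printed to show where the match lies, 5′ to 3′ with the match in capitals. It begins at base 245 of the window in Spint1, and at bases 21 and 16 in Macc1 and Cybrd1, near the upstream end.
Spint1: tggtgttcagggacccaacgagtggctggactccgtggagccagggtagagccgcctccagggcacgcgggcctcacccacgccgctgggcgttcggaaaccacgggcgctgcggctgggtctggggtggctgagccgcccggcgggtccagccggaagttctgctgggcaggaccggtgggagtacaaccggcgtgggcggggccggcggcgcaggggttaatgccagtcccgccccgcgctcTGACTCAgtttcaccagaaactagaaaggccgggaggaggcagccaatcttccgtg
Macc1: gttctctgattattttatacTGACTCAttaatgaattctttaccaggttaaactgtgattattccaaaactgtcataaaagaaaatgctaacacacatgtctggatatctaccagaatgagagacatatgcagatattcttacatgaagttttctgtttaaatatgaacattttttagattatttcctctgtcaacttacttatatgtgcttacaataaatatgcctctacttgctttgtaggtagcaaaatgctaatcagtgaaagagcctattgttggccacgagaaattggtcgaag
Cybrd1: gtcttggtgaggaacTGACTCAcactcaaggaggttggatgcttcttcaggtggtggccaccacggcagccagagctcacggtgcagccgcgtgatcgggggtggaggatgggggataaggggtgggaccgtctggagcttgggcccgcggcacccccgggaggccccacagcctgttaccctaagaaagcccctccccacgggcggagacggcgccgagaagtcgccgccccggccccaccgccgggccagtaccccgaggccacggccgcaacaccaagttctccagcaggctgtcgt
Macc1, a regulator of MET expression, rose by 0.66 ± 0.098 and Cybrd1 fell by 0.40 ± 0.061.

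Genes of bone formation were lower in mutants. Of 23 members of the osteoblast and bone list, 19 lay below controls, with a median of −0.30, and 5 fell: Phex, Ifitm5, Sp7, Creb3l1 and Mef2c. Over all genes 43.9% lay below controls and 0.448% were called lower, and 16 of the 23 had an unadjusted p under 0.05 and lay below controls, against 6.63% of all genes. All 8 matrix genes and all 3 regulators of osteoclasts were below controls. The median was −0.21 in batch 1 and −0.36 in batch 2, and −0.34 with sex as a term, where none was called. No bone gene was called without mutant 1, 3, 4 or 5 or control 2, 3, 4 or 5, 5 were called without control 1, and 10 without mutant 2. The median of those fits lay between −0.37 and −0.26.

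Sp7 (osterix), the transcription factor that commits cells to the osteoblast line, was at 6.22, 6.85, 6.27, 6.68 and 6.24 in mutants 1 to 5 and 7.03, 7.04, 7.24, 7.11 and 7.38 in controls 1 to 5. It fell by 0.70 ± 0.13 (1.63-fold lower, adjusted p = 0.0437), and every mutant lay below every control. Mef2c, a transcription factor of bone, cartilage and muscle, was at 8.15, 8.27, 7.99, 8.08 and 8.03 in mutants 1 to 5 and 8.38, 8.46, 8.53, 8.504 and 8.39 in controls 1 to 5. It fell by 0.35 ± 0.058 (adjusted p = 0.0276), without overlap. Creb3l1, a membrane-bound factor that drives collagen secretion in osteoblasts, fell by 0.63 ± 0.12, −0.37 in batch 1 and −0.80 in batch 2. Dlx5, Atf4 and Cbfb were at −0.14 ± 0.15, 0.01 ± 0.051 and 0.01 ± 0.067 and not called.

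Products of mineralizing cells showed the largest falls. Phex was at 5.74, 6.86, 5.45, 5.71 and 5.96 in mutants 1 to 5 and 6.65, 7.28, 7.28, 7.35 and 7.25 in controls 1 to 5. It fell by 1.22 ± 0.24 (2.33-fold lower, adjusted p = 0.0489), −0.67 in batch 1 and −1.59 in batch 2, and mutant 2 lay within the range of the controls. Ifitm5, a membrane protein of osteoblasts, was at 8.19, 8.78, 8.08, 8.12 and 8.08 in mutants 1 to 5 and 8.77, 8.83, 9.10, 8.98 and 9.12 in controls 1 to 5. Mutant 2 stood well above the other mutants and next to the controls, and the fall was 0.71 ± 0.14 (adjusted p = 0.0451). Dmp1, a matrix protein of osteocytes, was at 7.28, 8.41, 7.05, 6.49 and 7.17 in mutants 1 to 5 and 8.06, 8.69, 8.56, 8.88 and 8.99 in controls 1 to 5. Its difference of −1.36 ± 0.30 was larger than that of Phex, with mutant 2 again in the range of the controls, and it was not called (adjusted p = 0.068). Ibsp (bone sialoprotein) was at −0.43 ± 0.087 (adjusted p = 0.0511), Alpl (alkaline phosphatase) at −0.52 ± 0.13, Col1a1 at −0.34 ± 0.082 and the osteoprotegerin gene Tnfrsf11b at −0.39 ± 0.15. Slc20a1, a phosphate transporter, was above controls at 0.24 ± 0.11. In the array means of the list, mutant 2 stood at 7.80 and the other mutants at 7.48 to 7.53, while controls were at 7.80 to 8.04.

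Genes of other skeletal and matrix programmes moved less. Of 10 cartilage genes 2 fell (0.448% of all genes did): Hapln1, a link protein of cartilage matrix, by 0.59 ± 0.11, and Sox6, a partner of Sox9 in chondrocytes, by 0.33 ± 0.066. Over the mean of its probe sets Hapln1 was at −0.32. No cartilage gene was called with that mean or with sex as a term, and 0 to 1 over the fits that left out 1 array (1 without mutant 2 or control 4, 0 without any other). Sox9 was at 0.09 ± 0.081 and Col2a1 at −0.28 ± 0.18. Of 56 genes of the fibrous matrix and its processing, 41 lay below controls with a median of −0.09 and none was called, although 18 had an unadjusted p under 0.05 in that direction (32.1% against 6.63% of all genes). The 13 collagen-modifying enzymes were below controls without exception, at −0.36 to −0.04. Among them the prolyl hydroxylases P4ha2 and P4ha1 were at −0.36 ± 0.083 and −0.35 ± 0.072, P3h1 at −0.32 ± 0.069 and the lysyl hydroxylase Plod1 at −0.28 ± 0.11. P4ha1 was at 7.65, 8.03, 7.61, 7.71 and 7.63 in mutants 1 to 5 and 8.05, 8.08, 8.07, 8.07 and 8.11 in controls 1 to 5, with mutant 2 apart from the other mutants. Of the 10 collagens in this list 7 lay below controls (43.9% of all genes did), and the median of the 10 was −0.03. An unadjusted p under 0.05 was reached by 3 of them, all lower (6.63% of all genes were). The 10 ran from Col13a1 at −0.69 ± 0.14 to Col14a1 at 0.12 ± 0.11, with Col3a1 at −0.02 ± 0.050. The small proteoglycan Ogn was at −0.27 ± 0.060 and Dcn at 0.01 ± 0.055.

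Transcription factors of the palatal mesenchyme were mostly near 0. Of 36 tested, 14 lay above and 22 below controls with a median of −0.03, and 3 fell (0.448% of all genes did). None of them was called with sex as a term, with the replicate number as a block, without controls 1 and 3 together, or without mutant 1, 3, 4 or 5 or control 3. Irx3, an Iroquois homeobox factor, was at 8.08, 8.17, 8.11, 8.28 and 8.28 in mutants 1 to 5 and 8.72, 8.48, 8.60, 8.47 and 8.60 in controls 1 to 5. It fell by 0.39 ± 0.064 (adjusted p = 0.0268) and its neighbour in the family Irx5 by 0.38 ± 0.063 (adjusted p = 0.0276), each without overlap between the genotypes. Irx1 was at 0.55 ± 0.28 and not called, with mutants at 3.76 to 4.63 and controls at 2.88 to 4.34. Foxf1, a forkhead factor that answers to hedgehog signals, fell by 0.34 ± 0.060, to a difference of −0.14 and no call over the mean of its 2 probe sets. The palate regulators Osr2, Msx1, Tbx22, Shox2 and Meox2 were at 0.17 ± 0.068, −0.05 ± 0.20, 0.05 ± 0.14, −0.08 ± 0.082 and 0.01 ± 0.099. Pitx1, a factor of the oral epithelium and the lower jaw, was at 0.50 ± 0.11 (adjusted p = 0.0642).

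Signals between cells gave few calls. In the WNT list of 29 genes 2 rose (0.552% of all genes did), both of the R-spondin branch: Rspo2, a secreted amplifier of WNT signals, and Lgr5, its receptor. Rspo2 was at 5.33, 5.59, 5.42, 5.43 and 5.37 in mutants 1 to 5 and 4.47, 5.003, 4.36, 4.96 and 4.79 in controls 1 to 5, a rise of 0.71 ± 0.12 (1.63-fold, adjusted p = 0.0335) without overlap. Lgr5 rose by 0.34 ± 0.060 (adjusted p = 0.0335), with mutant 3 the highest at 5.96. With sex as a term neither was called, and the WNT list held no call without mutant 1, 4 or 5 or control 3 or 5. With their probe sets averaged, both fell under the filter on low values and were not tested. Of 12 WNT antagonists 8 lay below controls, including Dkk1 at −0.65 ± 0.18 and Sfrp2 at −0.21 ± 0.060, and the WNT targets Axin2 and Lef1 were at 0.19 ± 0.066 and 0.47 ± 0.24. Controls 1 and 3 were lowest for Lef1, at 4.72 and 4.57 against 5.64 to 5.83 in the other controls. None of 28 BMP and TGF-beta genes and none of 10 hedgehog genes was called, where 1.00% of all genes were. Bmp2 was at −0.33 ± 0.092, Bmp4 at −0.04 ± 0.060 and Tgfb3, which palatal fusion needs, at −0.11 ± 0.061. Shh, the hedgehog ligand of the oral epithelium, was at 0.25 ± 0.062 and its receptor and target Ptch1 in the mesenchyme at −0.15 ± 0.049.

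The p53 list of 13 genes and the interferon list of 4 gave 1 call each, both higher (0.552% of all genes were). The call of Pmaip1 was lost in 8 of the 10 fits that left out 1 array (it held without mutant 2 or control 1) and that of Ifitm3 in all 10, and both were lost with sex as a term. Pmaip1 (Noxa), a death regulator that p53 induces, was at 4.43, 4.63, 4.74, 4.57 and 4.99 in mutants 1 to 5 and 4.36, 3.90, 3.94, 3.63 and 3.58 in controls 1 to 5. It rose by 0.79 ± 0.15 (1.73-fold, adjusted p = 0.0435), 0.40 in batch 1 and 1.05 in batch 2. Controls 2 to 5 lay under 4, so Pmaip1 passed the filter on low values only with its mutant arrays. The other 12 members tested of the p53 list lay at −0.12 to 0.17. Ifitm3, an interferon-induced membrane protein, rose by 0.25 ± 0.049, and the other 3 interferon genes tested lay at −0.11 to 0.08. Of 33 cell cycle genes 25 lay above controls (75.8%, against 56.1% of all genes), by a median of 0.05, with none called.

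Among vessel and immune markers, 1 gene fell, Lyve1 (0.448% of all genes did), and 1 rose, Tagln (0.552% of all genes did). Lyve1 was at 4.53, 4.12, 4.61, 4.68 and 4.37 in mutants 1 to 5 and 5.51, 5.89, 5.83, 5.46 and 5.03 in controls 1 to 5. It fell by 1.08 ± 0.16 (2.12-fold lower, adjusted p = 0.0214), with all mutants below all controls. Its probe sets averaged together did not pass the filter on low values. The call was lost without mutant 1, 3 or 5 or control 2 or 3, at adjusted p = 0.0518 to 0.0661, and with sex as a term, at adjusted p = 0.0641. Pdpn, another lymphatic marker that mesenchyme also carries, was at 0.06 ± 0.11, and of 6 genes of the lymphatic list only these 2 passed the filter. Of 13 endothelial genes 12 lay below controls (43.9% of all genes did), and none was called. They were led by the transcription factor Erg at −0.30 ± 0.067 and Cdh5 (VE-cadherin) at −0.27 ± 0.090. The median over all 19 blood vessel genes was −0.07, at 0.02 in batch 1 and −0.18 in batch 2. Tagln, a contractile protein of smooth muscle and of activated fibroblasts, rose by 0.53 ± 0.087, 0.74 in batch 1 and 0.39 in batch 2, whereas Acta2 was at 0.06 ± 0.13. The call of Tagln was lost with sex as a term and in 6 of the 10 fits without 1 array. Of 13 macrophage genes 11 lay below controls (84.6%, against 43.9% of all genes) with a median of −0.15 and no call. Mrc1, a receptor of tissue macrophages that often carry LYVE1, was at −0.35 ± 0.12, Csf1r at −0.09 ± 0.053 and C1qa at 0.17 ± 0.12. The mean over the macrophage list ran from 6.08 to 6.28 on mutant arrays and from 6.14 to 6.44 on control arrays.

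Skeletal muscle had the highest median of all lists and no call. Of 23 genes 21 lay above controls (56.1% of all genes did), with a median of 0.45. None had an unadjusted p under 0.05 (14.8% of all genes did). The median was 1.06 in batch 1 and 0.06 in batch 2, and −0.04 without controls 1 and 3. The array means were 7.59, 6.73, 6.51, 6.27 and 6.75 in mutants 1 to 5 and 5.67, 6.73, 5.62, 6.69 and 7.001 in controls 1 to 5. Controls 1 and 3 thus had a far lower muscle signal than the other 8 arrays. Myog, the regulator of muscle differentiation, was at 8.04, 7.51, 6.95, 6.84 and 6.91 in mutants 1 to 5 and 5.72, 6.88, 5.94, 7.05 and 7.11 in controls 1 to 5. Without controls 1 and 3, 48 genes were called over all genes, 37 of them among the 87, and the medians of the oral epithelium, bone and ERK target lists were 0.35, −0.35 and 0.14. Among the dental genes Ambn (ameloblastin) was at −1.05 ± 0.21 (adjusted p = 0.0524) and Odam at 1.29 ± 0.90, with controls 1 and 3 at 0.56 and 1.07 and the other 8 arrays at 2.61 to 5.17.

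The series asked about the metabolism of the palatal mesenchyme, and at this stage metabolic genes differed little. Over 6 lists 161 genes were tested and 2 were called (1.24%, against 1.00% of all genes), and 20 had an unadjusted p under 0.05 (12.4%, against 14.8%). The median difference was 0.03. Fabp4, a fatty acid binding protein of fat cells, endothelium and macrophages, fell by 0.53 ± 0.096 and Fabp5, its counterpart in epithelia, rose by 0.19 ± 0.037. Fabp4 was at 6.72, 6.70, 6.51, 6.33 and 6.49 in mutants 1 to 5 and 6.82, 7.26, 7.01, 7.08 and 7.23 in controls 1 to 5. Fabp5 was at 11.29, 11.24, 11.28, 11.29 and 11.35 in mutants 1 to 5 and 11.12, 11.09, 11.07, 11.11 and 11.09 in controls 1 to 5. Neither gene overlapped between genotypes. Neither was called with sex as a term, and the calls were lost in 8 (Fabp4) and 9 (Fabp5) of the 10 fits without 1 array. Fabp3, the member typical of muscle, was at −0.69 ± 0.16 and not called, −0.11 in batch 1 and −1.07 in batch 2.

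Of 57 oxidative phosphorylation genes 51 lay above controls (89.5%, against 56.1% of all genes), but by a median of only 0.04. It was 0.13 in batch 1 and −0.01 in batch 2, so its sign turned between the batches. Ndufv1, a complex I subunit, was at 0.15 ± 0.039 and not called (adjusted p = 0.107). Glycolysis and lactate (24 genes) had a median of −0.02, the pyruvate and citric acid cycle list (18) 0.04, cholesterol synthesis (18) 0.00 and serine, one-carbon and ATF4 genes (16) 0.00, with no call in any of them. Hk1 was at −0.21 ± 0.074, the glucose transporter gene Slc2a3 at −0.25 ± 0.10 and Pdk1 at −0.16 ± 0.064. The median moderated standard error over all genes was 0.06, so a shift of a few percent was not detectable for single genes.

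The genotype difference was also compared between the batches. All 87 called genes had the same sign in both, which their selection on these same arrays, with both batches in one fit, favours. For 7 of them the 2 differences were apart at an unadjusted interaction p under 0.05, against 9.19% of all genes. Kazald1, among these 7, was at 5.75, 6.49, 5.24, 5.56 and 5.68 in mutants 1 to 5. It stood at 6.36, 7.11, 6.75, 7.15 and 7.11 in controls 1 to 5, a difference of −0.62 in batch 1 and −1.51 in batch 2. Phex, at −0.67 in batch 1 and −1.59 in batch 2, was not among the 7. For neither Kazald1 nor Phex did the difference between batches pass after adjustment. Mutant 2 was the highest mutant for both genes and control 1 the lowest control. Only 1 of 8703 genes (0.0115%) passed for the difference itself. This was Smad2, a mediator of TGF-beta signals, at 7.32, 7.22, 6.36, 6.25 and 6.500 in mutants 1 to 5 and 3.64, 3.72, 6.25, 6.22 and 6.20 in controls 1 to 5. The 2 batch 1 controls stood near 3.7 and all other arrays between 6.20 and 7.32. The differences were 3.59 in batch 1 and 0.15 in batch 2, apart by −3.44 ± 0.11 (adjusted p = 1.16e-06). Its other probe set was at −0.32 with both batches together.

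**Figure D5:**
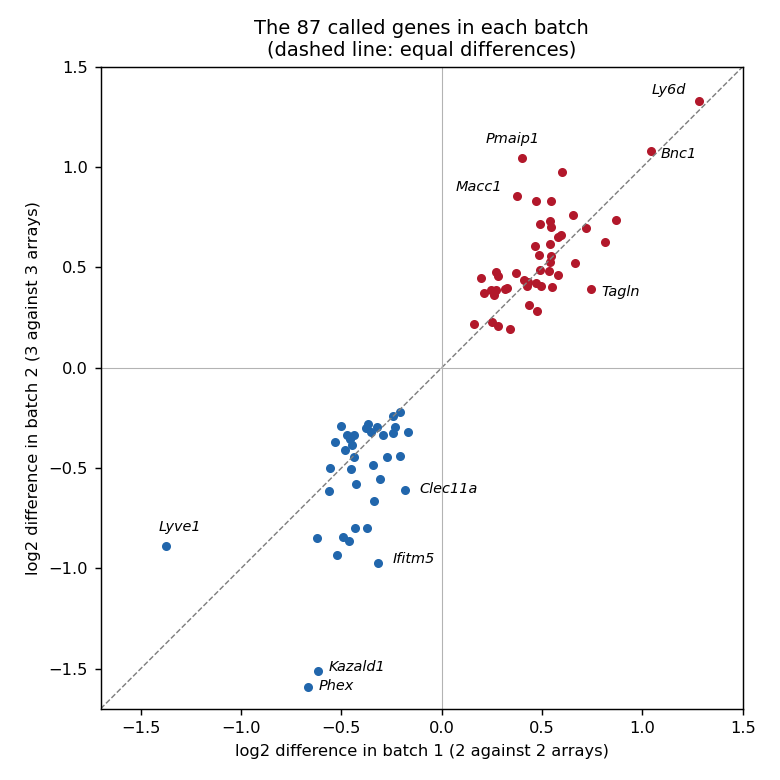
Each point is 1 of the 87 called genes, with its log2 difference in batch 1 (2 against 2 arrays) on the x axis and in batch 2 (3 against 3 arrays) on the y axis, red for genes called higher and blue for genes called lower. All points lie in the quadrants of equal sign, which the selection of these genes on the same arrays favours. Ly6d and Bnc1 lie on the dashed line of equal differences, and Phex and Kazald1 well below it.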

How the data were processed

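One-colour Affymetrix arrays measured RNA in 16 palate samples, of which the 10 from E14.5 enter the results. The authors deposited log2 expression values made with GCRMA (version not given in the sources used here), per the submitters' processing notes. The deposited log2 values were used without further normalization. Probe sets were named from the platform annotation, with symbols updated through RefSeq (GRCm38.p6; 18145 genes matched). Where a gene had several probe sets, the one brightest on average over the 10 arrays was taken. Genes at a log2 value of 4 or more on at least 5 arrays were tested, 8703 in all.

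Genotype was fitted with batch as a term in limma 3.58.1 (lmFit and eBayes; R 4.3.3), with Benjamini-Hochberg adjustment over all genes tested. A gene was called at an adjusted p under 0.05. A fold is 2 raised to the log2 difference. The difference between batches was an interaction term. The code was tested on simulated data. The number of arrays limits the precision. GCRMA shrinks low values, so differences of dim genes depend on its background model.

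The genes to name were the 15 largest rises and falls among called genes (predicted genes left out), the 4 members of each list with the smallest p, and the 5 genes with the smallest p for the batch difference. Other list members were named for their role, and other called genes as such, after their values were seen. The members and lists were chosen with earlier results of these data known, so list counts are descriptions. The 25 alternatives included all 16 arrays, other filters and scalings, the mean over probe sets, sex or the actin ratio as a term, each batch alone, the replicate number as a block, and each array left out. Figures were drawn with matplotlib 3.10.9.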

Additional observations from a re-analysis of the deposited data

Results flagged for a closer look

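In 308 groups of 5 arrays (each genotype, for every gene named by the rule), 11 had 1 array far from the other 4; chance alone gives about 1 in 20. Mutant 2 was the high array for Ifitm5 (8.78, nearest 8.19), P4ha1 (8.03, nearest 7.71) and the BMP inhibitor Bambi (7.44, nearest 7.19). Control 1 was the low array for Phex (6.65, nearest 7.25), Dkk1 (6.42, nearest 6.98) and Lsm12, a Sm-like protein (3.95, nearest 4.84). Mutant 3 was high for Lgr5 (5.96, nearest 5.75) and for the ephrin ligand Efnb2 (9.23, nearest 8.99). Mutant 1 was low for Klf4 (9.45, nearest 9.62) and high for the ribosomal protein gene Rpl13a (12.65, nearest 12.60), and mutant 4 was high for Cdh5 (6.19, nearest 5.96).

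The genotype difference of Smad2 was smaller in batch 2 than in batch 1 by 3.44 on the log2 scale (batch 2 minus batch 1, −3.44), by the interaction test given above.

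Some probe sets without a single gene name also differed. One probe set, annotated to several genes, was at 5.62 to 6.06 in mutants and 2.87 to 4.28 in controls, a difference of 2.33. Another, with no gene name, was at 7.16 to 7.59 in mutants and 6.64 to 6.90 in controls, a difference of 0.63.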

How the results depend on the processing

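None of the 87 called genes changed sign under any of the 25 alternatives in which it was tested; some fell under a stricter filter, or under the filter after averaging probe sets, and had no value there. The number called did not hold. A call was lost under a median of 12 of the 25. The causes were not tested. Over the fits that left out 1 array, 15 to 134 genes were called, 12 to 56 higher and 3 to 78 lower, with 4 to 12 in the oral epithelium list, 1 to 3 among ERK-induced targets, 0 to 10 in the bone list and 0 to 4 in the fibrous matrix list.

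All 16 arrays in one fit gave 254 calls (136 higher, 118 lower), with 18, 7, 10 and 6 in those 4 lists, in that order. Without the batch term 161 were called (74 higher, 87 lower), with 8 bone and 5 fibrous matrix genes. With eBayes set to trend and robust 142 were called (77 lower), with 8 bone and 6 fibrous matrix genes, and 2 genes differed between batches. Without the filter on low values 53 were called (20 lower) and no bone gene. Sex as a term gave 19 calls (14 higher, 5 lower), with 5 epithelial, 1 ERK-induced and 0 bone genes. Without controls 1 and 3 there were 48 (30 higher, 18 lower), with 2 bone genes and a fibrous matrix median of −0.0496.

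Batch 1 alone gave 5 calls (2 higher, 3 lower), with 0 in the epithelial, ERK and bone lists and a fibrous matrix median of −0.13. Batch 2 alone gave 40 (14 higher), with 4 epithelial, 1 ERK-induced and 1 fibrous matrix gene. The bone list held 1 call with array weights and 2 with the actin ratio as a term. The fibrous matrix list held 3 calls with a filter at a log2 value of 6, 3 after further quantile normalization and 1 with array weights.

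Same-numbered mutants and controls did not deviate together from the means of their genotype and batch (correlations −0.304 to 0.0152). In batch 1, with 2 arrays of each genotype, both numbers necessarily gave the same value, −0.126. From the means of the genotype alone the correlations were −0.445 to 0.0125, and no mutant matched its own number best. With the replicate number as a block 41 genes were called (26 higher, 15 lower), 35 of them among the 87, with 1 bone and 1 fibrous matrix gene.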

Other observations

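Of the 87 called genes, 54 belonged to none of the lists; those below were chosen after their values were seen. Among those that rose, Hes1, a repressor downstream of Notch, rose by 0.36 ± 0.065, and Crabp2, which carries retinoic acid to its nuclear receptors, by 0.46 ± 0.070. Ntrk2, the receptor of the neurotrophin BDNF, rose by 0.41 ± 0.081 and the classical cadherin Cdh4 by 0.53 ± 0.091. Kdelr3, a receptor that returns proteins to the endoplasmic reticulum, fell by 0.32 ± 0.059, Pdia5, a disulfide isomerase, by 0.29 ± 0.058 and Fkbp7, a prolyl isomerase there, by 0.26 ± 0.052. Clec11a, a secreted growth factor of bone, fell by 0.44 ± 0.085, −0.18 in batch 1 and −0.61 in batch 2. Sgms2, a sphingomyelin synthase, fell by 0.65 ± 0.11, Tent5a, a poly(A) polymerase of osteoblasts, by 0.46 ± 0.091 and the phosphoglucomutase Pgm1 by 0.27 ± 0.038. None of the genes named in this paragraph was called with sex as a term. Their calls were lost in 4 (Crabp2) to 9 (Hes1, Kdelr3 and Ntrk2) of the 10 fits without 1 array.

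Some genes lay below the filter on low values, so their differences depend on the background model. Without that filter 18193 genes were tested and 53 called, of which 13 had not been tested with it. Ifi202b, an interferon-inducible p200 protein, was at 3.95, 4.49, 4.33, 4.47 and 4.73 in mutants 1 to 5 and 2.42, 2.70, 2.09, 2.94 and 2.51 in controls 1 to 5. The groups did not overlap, and limma gave a difference of 1.86 ± 0.17 (adjusted p = 0.00277). Lad1, an anchoring filament protein of epithelial basement membrane, was at 3.59 in mutants and 2.93 in controls on average, and Calml3, a calmodulin-like protein of keratinocytes, at 3.94 and 3.27. Maff, a partner of AP-1 type factors, was at 3.17 and 2.69, and Nppc, the C-type natriuretic peptide, at 2.51 and 1.66.

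Of the 87 called genes 20 had another probe set past the filter. In 19 of these it lay in the same direction, the exception being Ube2v2, and in 17 it was at least 0.5 times as large.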
